A study of Mus musculus with 2 samples.

Results

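Ribosomal protein genes encode the proteins of the cytosolic ribosome. Here 80 of these genes were followed in lung endothelial cells (ECs) with and without melanoma cells in the lung. Genes were chosen by symbol alone, as Rpl or Rps followed by a number, with or without a letter (a, x, l or y) and a further digit. Rplp0, Rplp1, Rplp2 and Rpsa were also taken, and the S6 kinases were left out. Symbols with other endings, such as Rpl10-ps3 and Rps27rt, did not match. Of the 32285 genes listed in both libraries, 83 matched, and 80 had at least 50 unique molecular identifiers (UMIs) over all cells. The 3 left out were the germline or muscle paralogs Rpl10l with 0 UMIs, Rpl39l with 15 and Rpl3l with 18. By symbol alone, 48 members (Rpl) were counted with the large subunit and 32 (Rps) with the small subunit, paralogs included. They lie on 19 chromosomes, with at most 14 on any chromosome, and all are annotated as protein coding.

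The 2 groups were wild type C57BL/6 mice injected through the tail vein with phosphate-buffered saline (control) or with 400000 B16-F10 cells in 100 µl, and both were examined at 6 h. The B16-F10 line comes from a skin melanoma of the mouse, and the injected cells carried a green dye. ECs were sorted as Pecam1 positive and Ptprc negative, the dyed cells of injected lungs were added back, and each group was sequenced as 1 pooled library with no replicate. The labels give 2 mice for each treatment and the methods of the study give a different number, so the pool size is not settled. Every interval below is a 95% interval that covers counting error only, no test was possible, and a difference between the pools, the sorts or the libraries cannot be told apart from one between the treatments.

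The depth of control was 85794655 UMIs and that of B16-F10 was 104978816. After filters and removal of doublets, 7830 and 7767 cells remained, and only 19 cell barcodes were found in both libraries. Vessel classes were named from fixed markers after clustering without the ribosomal protein genes. They were general capillary (gCap-like, with Gpihbp1, Kit and Glp1r), aerocyte capillary (aCap-like, Ednrb and Fibin), artery-like (Gja5), vein-like (Slc6a2 and Car8) and lymphatic (LEC-like, Prox1, Reln and Ccl21a) cells. In gCap-like cells the 8 pan-endothelial markers summed to 11949 counts per 1000000 UMIs (CPM) in control and 11178 in B16-F10 lungs, with no marker at 0.

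Cytosolic ribosomes join a small subunit, which reads the message, and a large subunit, which forms peptide bonds. Most ribosomal protein messages begin with a C followed by a run of pyrimidines, the 5′ terminal oligopyrimidine (TOP) tract, through which mTORC1 and the RNA-binding protein Larp1 control their translation and storage. Their transcripts are short, stable and among the most abundant in a cell, and ribosome content is known to follow cell growth.

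The annotated starts of 4 members are printed because these members stood at opposite ends of the range of ratios described below. Capitals mark the run of C and T that begins at the annotated start, each line holds 15 bases before that start and 15 from it on, and sequences and starts come from RefSeq on GRCm38.p6. They were chosen among the 8 highest and 8 lowest members after their tracts had been seen.
Rpl35 (chr2:39005117-39005146, minus strand): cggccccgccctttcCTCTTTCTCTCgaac
Rpl7a (chr2:26910792-26910821, plus strand): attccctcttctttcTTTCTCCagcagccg
Rps21 (chr2:180257364-180257393, plus strand): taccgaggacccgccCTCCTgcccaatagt
Rpl27a (chr7:109519180-109519209, plus strand): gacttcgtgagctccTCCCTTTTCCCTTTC

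RefSeq gave a start window for 60 of the 80 members. A start at C followed by at least 4 pyrimidines was annotated for 12 of the 60 (20%), against 2.49% of 27025 genes. When the C could lie up to 5 bases from the annotated start, 28 (46.7%) met it, against 18.5% of all genes. In the window from 250 bases before to 50 after the start, both strands searched, the letters CCGGAAG, the core of ETS factor motifs, occurred in 40% of members and 9.12% of genes. GGGCGG, the GC box, occurred in 61.7% and 35.9%, and AAGATGGC, a core of the YY1 motif, in 8.33% and 2.88%. These matches are descriptions of sequence. Rpl35 and Rps21 both begin with a complete tract, and they were among the highest and the lowest members in gCap-like cells.

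The first comparison asked what share of all UMIs came from ribosomal protein genes in each vessel class. The share differed more between vessel classes than between the libraries. In control lungs it was 3.48% in aCap-like, 5.99% in gCap-like, 6.45% in artery-like, 7.63% in LEC-like and 9.94% in vein-like cells. In B16-F10 lungs the same classes stood at 4.85%, 6.92%, 6.86%, 6.49% and 10.13%. The vein-like share was thus the highest and the aCap-like share the lowest in both libraries, while LEC-like cells moved from above artery-like and gCap-like cells to below both.

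In capillary cells the share was higher in the B16-F10 library. The gCap-like share was 0.93 percentage points higher in B16-F10 lungs (0.91 to 0.94), over 4915 control and 4454 B16-F10 cells. The aCap-like share was 1.37 points higher (1.36 to 1.39), over 1457 and 974 cells. On the log2 scale these are differences of 0.21 and 0.48 in the summed share. Artery-like cells differed by 0.41 points (0.35 to 0.47; 196 and 140 cells) and vein-like cells by 0.19 points (0.15 to 0.24; 290 and 283 cells), which are log2 differences of 0.09 and 0.03. With free RNA subtracted at 10% of UMIs the artery-like difference was 0.068 points and the vein-like difference -0.13 points, so the first lost most of its size and the second has no stable direction. LEC-like cells went the other way, at -1.14 points (-1.24 to -1.04), over 57 and 51 cells, a difference of -0.23 on the log2 scale. It was -0.58 points with doublets kept. LEC markers in this class summed to 29192 and 37893 CPM with no marker at 0, and melanoma markers to 21.4 CPM (6 of 8 at 0) and 72.7 CPM (3 at 0), and the part of other cells in the difference was not tested.

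**Figure D1:**
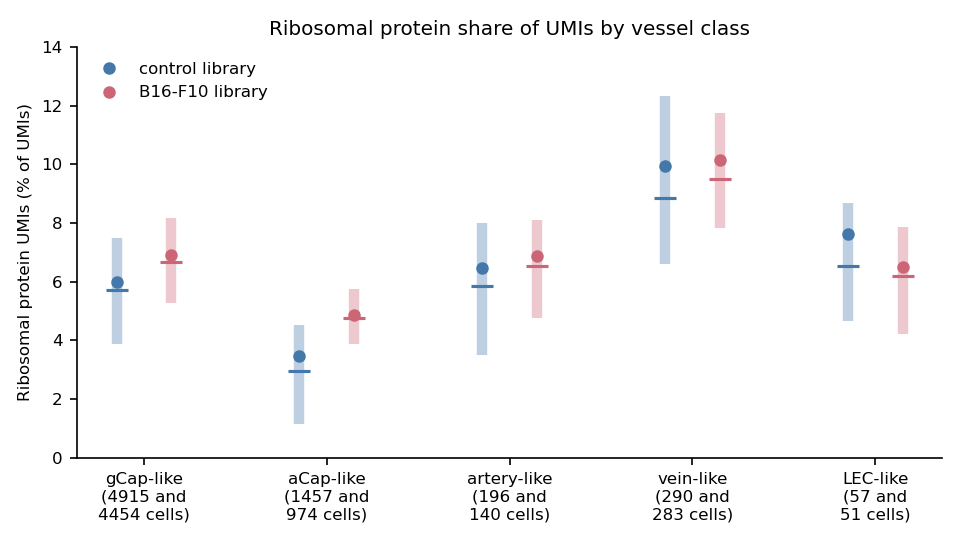
Ribosomal protein UMIs as a percentage of all UMIs (y axis) in 5 vessel classes, with control in blue and B16-F10 in red. Dots give the share of the summed UMIs, dashes the median cell and thick bars the range from the lower to the upper quartile of cells; the dots of the B16-F10 library lie above those of control in 4 classes and below in LEC-like cells.

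The median cell showed the same order as the sums. It was 5.70% and 6.68% in control and B16-F10 gCap-like cells, 2.95% and 4.75% in aCap-like, 5.84% and 6.52% in artery-like, 8.86% and 9.49% in vein-like and 6.54% and 6.21% in LEC-like cells. The quartile ranges of the libraries overlapped in every class. In aCap-like cells the control range, 1.15% to 4.51%, reached much lower than the B16-F10 range, 3.86% to 5.75%.

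Some cells held very little ribosomal protein RNA, more of them in the control library in gCap-like, aCap-like and artery-like cells. Cells under 2%, a limit chosen after the distribution had been seen, numbered 546 of 1457 control aCap-like cells (37.5%, 34.98 to 40.02) and 59 of 974 in B16-F10 lungs (6.06%, 4.64 to 7.74). In gCap-like cells they numbered 608 of 4915 (12.4%, 11.5 to 13.3) and 212 of 4454 (4.76%, 4.15 to 5.43). Artery-like cells had 30 of 196 (15.3%, 10.6 to 21.1) and 12 of 140 such cells (8.57%, 4.51 to 14.5), so these intervals overlapped. Vein-like cells had 4 in each library, and LEC-like cells 0 of 57 and 4 of 51. With 3 counts taken as the limit for 0, the count of 0 allows a share of up to 5.26%. Its Clopper-Pearson interval, the kind given for the other counts, reaches 6.27%.

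The cells under 2% were also shallow. In the control library their median was 3758 UMIs against 7604 in the other gCap-like cells, and 5070 against 10899 in the other aCap-like cells. Malat1, a nuclear noncoding RNA, took 4.41% of their UMIs against 3.77% in the other gCap-like cells and 4.89% against 3.75% in the other aCap-like cells of control. Leaving them out gave differences of 0.66 points in gCap-like, 0.68 in aCap-like, 0.17 in artery-like, 0.22 in vein-like and -0.95 in LEC-like cells. Because this filter acts on the share that is compared, these values describe how much the cells under 2% weigh in the sums and say nothing of a difference among the rest. The part of cell quality in these differences was not tested.

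**Figure D2:**
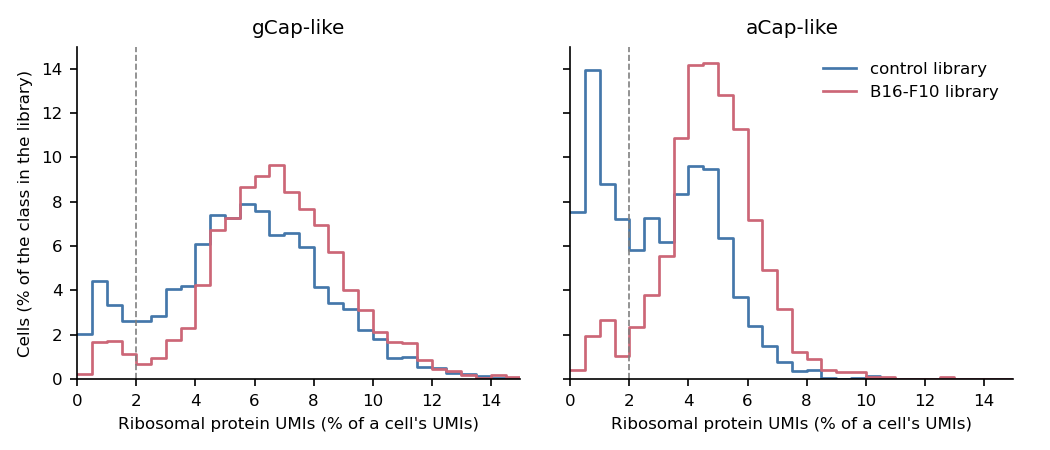
Distribution of the ribosomal protein share of single gCap-like (left) and aCap-like (right) cells, as the percentage of the cells of a class and library (y axis) in bins of the share (x axis), with control in blue and B16-F10 in red. The dashed line marks 2%, below which lay 12.4% and 4.76% of gCap-like cells and 37.5% and 6.06% of aCap-like cells.

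The difference was present at every depth examined. Among gCap-like cells it was 0.36 points in cells under 4000 UMIs, 0.76 from 4000 to 8000, 0.66 from 8000 to 12000 and 1.11 at 12000 or more. Among aCap-like cells it was 2.34, 1.73, 1.10 and 0.95 points in the same bins. The gCap-like cluster led by the noncoding genes Gm20631 and Gm10503 had the lowest shares of their class, 1.90% and 4.05%. Each of the 6 gCap-like clusters was higher in the B16-F10 library, from 0.61 points in the cluster led by Ntrk2 and Adam23 to 2.15 points in the cluster led by Gm20631.

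The libraries also filled the gCap-like clusters unequally. The cluster led by Lalba, Tmem252 and Adamts9 held 60 control and 938 B16-F10 cells, with shares of 5.62% and 6.99%, and the cluster led by Hilpda and Hey1 held 1074 and 348 cells, with shares of 7.44% and 8.60%. The clusters led by Sox11 and Aplnr (1403 and 1036 cells) and by Zswim5 and Tmem221 (1056 and 1360 cells) were the largest of the class in both libraries together.

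Different clusters held most aCap-like cells of the 2 libraries. In control, 645 cells lay in the cluster led by Fibin and Rbfox3 and 627 in the cluster led by Tmeff2 and Slc5a12, which held 105 and 79 B16-F10 cells. In B16-F10 lungs, 744 cells lay in the cluster led by Rprml and Cyp1a1, which held 184 control cells. Within these 3 clusters the share was 4.49% and 5.75%, 1.45% and 2.16%, and 3.90% and 4.83%, so each was higher in the B16-F10 library.

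Mitochondrial genes and Malat1 give further signs of RNA quality. Mitochondrially encoded genes took 2.12% and 2.50% of gCap-like UMIs and 1.73% and 2.11% of aCap-like UMIs, and Malat1 took 3.82% and 3.50%, and 4.03% and 3.94%. Leaving both out of the total gave a gCap-like difference of 0.99 and an aCap-like difference of 1.47 points. Free RNA also differed between the libraries, since barcodes with 1 to 100 UMIs held 7.79% ribosomal protein UMIs in the control and 11.4% in the B16-F10 library. Subtracting it at 10% of UMIs gave 0.64 and 1.12 points. Melanoma markers summed to 26.9 CPM (3 of 8 at 0) and 53.6 CPM (0 at 0) in gCap-like cells and macrophage/monocyte markers to 14.3 (2 of 8 at 0) and 29.0 CPM (1 at 0), and their part in the result was not tested.

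The next comparison concerned the 80 genes one by one in gCap-like cells, as the log2 ratio of B16-F10 over control CPM. CPM here is not divided by transcript length, since UMIs were counted from 3′ ends. All 80 genes were higher in the B16-F10 library, against 46% of 13259 genes. Each member had a counting interval above 0, against 28.8% of these genes and 1083 of the 2287 genes with at least 100 CPM. The differences were small and even. Their median was 0.21, with the large subunit at 0.22 and the small subunit at 0.21, while the median over all genes was -0.03. The lowest was 0.04 and the highest 0.48. A log2 ratio of 0.25 or more was reached by 27 of 80 members, against 21.3% of all genes and 24.4% of the genes with at least 100 CPM, and -0.25 or less by 0 of 80, against 27.4% and 22.6%. The members thus had a common direction with differences of small size. Without the cells under 2%, a filter on the share itself, the count at 0.25 or more was 12 of 80. As a share this lies below the 21.3% of all genes given above, and the share of all genes without those cells is not given. Over all ECs the count was 56, against 22.2% of all genes.

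**Figure D3:**
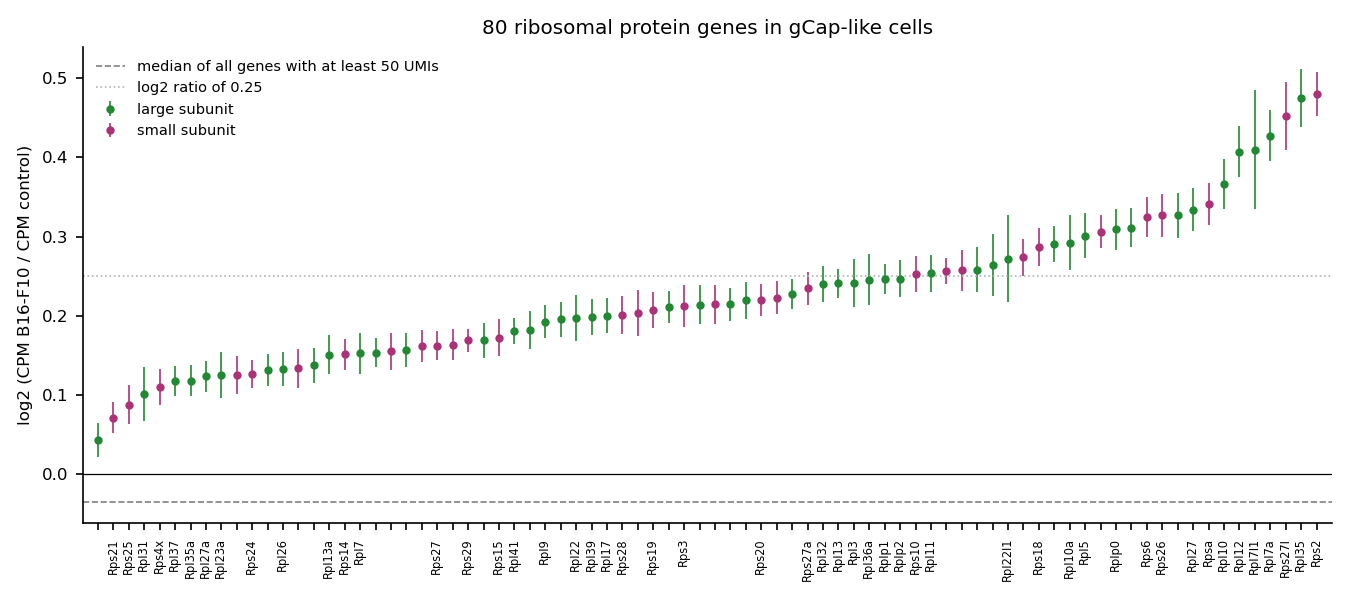
log2 ratio of B16-F10 over control CPM (y axis) for the 80 ribosomal protein genes in gCap-like cells, in order of the ratio, with large subunit genes in green and small subunit genes in purple. Genes named in the text are labelled, bars are 95% counting intervals, and all lie above 0 and above the median of all genes, -0.03 (dashed line).

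Rps2, which lies at the entry side of the messenger RNA channel of the small subunit, led the list. The gene (ENSMUSG00000044533) had 17816 UMIs in control gCap-like cells and 26217 in those of B16-F10, or 483 and 673 CPM. Its log2 ratio was 0.48 (0.45 to 0.51). Rpl35, a large subunit protein near the peptide exit tunnel, had 272 and 378 CPM and a ratio of 0.48 (0.44 to 0.51). The near-identical gene Gm2000 shares 62.2% of the read-length windows at the 3′ end of Rpl35, had 3281 and 3159 UMIs, and lowers the ratio to 0.35 (0.31 to 0.38) when both genes are summed. Its split with Rpl35 is thus uncertain.

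Rps27l, a paralog of Rps27 known as a p53 target, had 201 and 275 CPM and a ratio of 0.45 (0.41 to 0.50). Rps27 itself stood far higher, at 1198 and 1341 CPM, with a ratio of 0.16 (0.14 to 0.18). Rpl7a, a large subunit protein, had 369 and 496 CPM (0.43, 0.40 to 0.46), and Rpl12, at the base of the stalk, 352 and 466 CPM (0.41, 0.37 to 0.44). Rpl7l1, a Rpl7 paralog of ribosome assembly, was the least abundant member, at 67.0 and 89.0 CPM (0.41, 0.33 to 0.48). All 6 of these genes were below the median abundance of the list. Rpl10, which completes the large subunit late in its assembly, and Rpsa, the laminin receptor protein of the small subunit, had ratios of 0.37 and 0.34, and 87.6% of Rpl10 windows are shared with Rpl10-ps3.

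Toward the low end, Rps21 had 1091 and 1147 CPM and a ratio of 0.07 (0.05 to 0.09). Rps25, which takes part in initiation at internal entry sites, had a ratio of 0.09, Rpl31 0.10, Rps4x 0.11, and Rpl37, Rpl35a and Rpl27a 0.12 each. Of these 7 genes only Rpl31 and Rps25 were below the median abundance of the list, so the low ratios lay mostly among abundant members. Among the most abundant members, Rps29, the highest at 1919 and 2158 CPM, had a ratio of 0.17. Rpl41 at 0.18 and Rps24 at 0.13 were likewise below the median ratio of 0.21, while Rpl13 was above it at 0.24.

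By role, the acidic stalk that recruits translation factors had similar ratios throughout, at 0.31 for Rplp0 and 0.25 for both Rplp1 and Rplp2. Rpl5 and Rpl11, which with 5S RNA form the particle that binds the p53 regulator Mdm2, were at 0.30 and 0.25. Rps6, the substrate of S6 kinase, had 579 and 725 CPM and a ratio of 0.32 (0.30 to 0.35). Rps3, at the messenger RNA entry, was at 0.21 and Rps27a, made as a ubiquitin fusion, at 0.23. Rpl22 was at 0.20 and its paralog Rpl22l1 at 0.27, from 127 to 154 CPM. Rps14 and Rps19, both linked to inherited or acquired anaemia, were at 0.15 and 0.21, Rpl13a at 0.15, Rpl3 at 0.24 and Rpl39 at 0.20. Rpl7, the parent gene of Rpl7l1, was at 0.15.

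In aCap-like cells the ratios were larger. All 80 genes were at 0.25 or more, against 26.5% of all genes and 30.4% of those with at least 100 CPM. Their median was 0.50 and their range 0.34 to 0.67. Rpl35 (184 and 294 CPM, ratio 0.67), Rpl12 (179 and 275 CPM, 0.62) and Rpl22l1 (83.7 and 127 CPM, 0.60) were highest, and Rpl31 (0.34), Rpl41 (0.35) and Rpl37 (0.35) lowest. Rpl12 and Rpl35 were thus among the highest, and Rpl31 and Rpl37 among the lowest, in both capillary classes. The split of Rpl35 with Gm2000 was examined in gCap-like cells only, so its ratios and ranks in the other classes are uncertain. The largest excesses over the gCap-like ratio included that of Rpl26, at 422 and 599 CPM with a ratio of 0.50, against 0.13 in gCap-like cells. Neither capillary class had a member with a negative ratio. Erythroid markers summed to 1988 and 980 CPM in aCap-like cells with no marker at 0, melanoma markers to 46.2 CPM (3 of 8 at 0) and 67.4 CPM (0 at 0), and macrophage/monocyte markers to 11.8 and 21.9 CPM (3 of 8 at 0 in each), and their part in the result was not tested.

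Artery-like cells gave 69 of 80 members above 0, against 51.6% of all genes, with a median of 0.08. Counting intervals lay above 0 for 27 members and below it for 1, against 14.4% and 12.7% of all genes. Of the 2283 genes with at least 100 CPM, 611 had intervals above 0 and 514 below it. Rps27l had the highest ratio in this class, at 148 and 269 CPM (0.86, 0.61 to 1.10; 223 and 348 UMIs). Rpl7l1 came next, at 0.62 on only 83 and 110 UMIs (0.20 to 1.05), before Rpl7a and Rpl27 at 0.40 each. Rpl17 was lowest, at 826 and 757 CPM (-0.13, -0.25 to -0.00), with Rpl23a at -0.07 and an interval that includes 0. Rps6 differed most from its gCap-like value beside Rps27l and Rpl17, at -0.03 (-0.17 to 0.10). Melanoma markers summed to 24.6 CPM (6 of 8 at 0) and 60.2 CPM (3 at 0) in artery-like cells, and their part was not tested.

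In vein-like cells 56 of 80 members were above 0, against 46.7% of all genes, and the median was 0.04. Intervals lay above 0 for 26 members and below it for 3, against 12.2% and 15.2% of all genes. Of the 2164 genes with at least 100 CPM, 555 had intervals above 0 and 574 below it. Rpl35 (455 and 553 CPM, ratio 0.28), Rpl12 (639 and 744 CPM, 0.22) and Rps27l (0.18) were highest. Rps21 (1974 and 1828 CPM, -0.11) and Rpl37 (1986 and 1855 CPM, -0.10) were lowest, with intervals below 0. Rps2 was at 0.07 (-0.01 to 0.14) in place of 0.48 in gCap-like cells, and Rps26 and Rplp1 were at 0.04 and -0.04. Erythroid markers summed to 516 CPM and 3532 CPM in this class, and their part in the result was not tested.

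LEC-like cells were the exception. Of 79 members with at least 50 UMIs, 5 were above 0, against 48.9% of all genes, and 36 were at -0.25 or less, against 27.1%. The median was -0.22. Counting intervals lay below 0 for 45 members and above it for 0, against 10.3% and 9.89% of all genes. Of the 2373 genes with at least 100 CPM, 349 had intervals below 0 and 314 above it. Rpl22l1 was lowest, with 124 and 79 UMIs, or 265 and 164 CPM (-0.69, -1.12 to -0.27), followed by Rpl10a at 508 and 349 CPM (-0.54, -0.84 to -0.25) and Rps20 at 1360 and 954 CPM (-0.51, -0.69 to -0.34). Rps2 was also lower here, at 918 and 719 CPM (-0.35, -0.56 to -0.15). Rpl7a (0.13), Rps10 (0.09) and Rps15 (0.06) were the highest, each with an interval that includes 0. This class rests on few cells, and whether its ratios differ from those of other classes was not tested.

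Across the classes, 80 of 80 genes were higher in both gCap-like and aCap-like cells, against 36.9% of 11011 genes with at least 50 UMIs in both. In all 4 blood vessel classes 50 of 80 were higher, against 23.3% of 7082 genes. In LEC-like cells 74 of 79 were lower, against 51.1%, and 5 of 79 were higher in all 5 classes, against 13.8% of 3604 genes. The 5 classes share 2 libraries, so these counts describe 1 pair of libraries rather than separate observations.

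**Figure D4:**
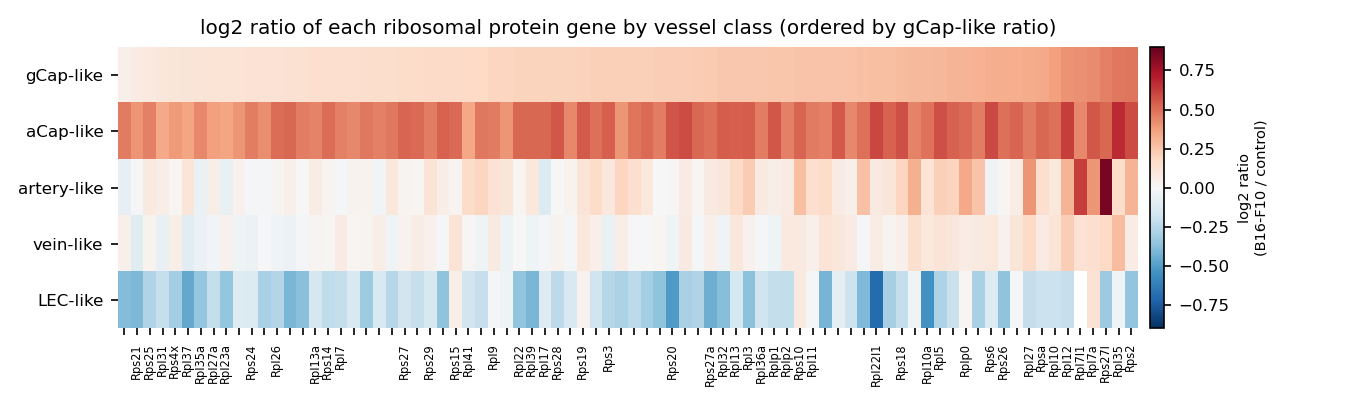
log2 ratio of B16-F10 over control CPM as colour (red higher, blue lower in B16-F10) for the 80 genes (columns, in order of the gCap-like ratio) in 5 vessel classes (rows), with genes under 50 UMIs left blank and genes named in the text labelled. The aCap-like row is red throughout, the vein-like row is near white with a median of 0.04, and the LEC-like row is mostly blue.

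Other genes of translation were compared from fixed lists in gCap-like cells. The other TOP genes, which encode elongation factors, initiation factors and similar proteins, had a median of 0.21, with 21 of 22 above 0, against 46% of all genes. Hnrnpa1 (97.6 and 141 CPM, 0.53), the elongation factor Eef1g (164 and 226 CPM, 0.46) and the nucleolar protein Npm1 (203 and 265 CPM, 0.38) were highest. Eif4b, a helicase cofactor, was the exception, at 77.0 and 70.2 CPM (-0.13, -0.21 to -0.06). Tpt1 and Eef1a1, the most abundant of the list, were both at 0.21, the value of the ribosomal protein median. Fau, whose product is cleaved to a ribosomal protein and a ubiquitin-like part, was at 0.03.

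Ribosomal proteins of mitochondria, which serve a separate ribosome, had a median of 0.22, beside 0.21 for the cytosolic genes, and a wider range. Of 78 genes, 68 were above 0, against 46% of all genes, 34 were at 0.25 or more, against 21.3%, and 0 at -0.25 or less, against 27.4%. Mrpl17 was highest, at 42.3 and 88.6 CPM (1.07, 0.98 to 1.15), followed by Mrps18b at 13.9 and 25.9 CPM (0.90) and Mrpl52 at 116 and 208 CPM (0.84). Mrps35 was lowest (-0.18, -0.33 to -0.03). Cytosolic members by comparison stayed within 0.04 to 0.48.

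Initiation, elongation and release factors outside the TOP list had a median of 0.26, with 29 of 31 above 0 (46% of all genes) and 16 at 0.25 or more (21.3%). Eif1a, which acts in scanning for the start codon, had the largest ratio of these lists, at 34.9 and 77.6 CPM (1.15, 1.06 to 1.25). Eif2s1, the initiation factor subunit phosphorylated under stress, was at 0.58, the helicase Eif4a1 at 0.56, and Eif6, which keeps large subunits apart until they are mature, at 0.55. Eif2b4 (-0.08) and Eif2b2 (-0.07) were the only members below 0, both with intervals that include 0.

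The genes of mTORC1 and TOP control lay near the background of all genes. Their median was -0.04, beside -0.03 over all genes, with 7 of 14 above 0 (46% of all genes), 3 at 0.25 or more (21.3%) and 2 at -0.25 or less (27.4%). Deptor, an mTOR inhibitor, had 46.3 and 28.7 CPM (-0.69, -0.80 to -0.58), and Tsc1 30.0 and 23.7 CPM (-0.34). Ddit4, which inhibits mTORC1 under stress, had 301 and 584 UMIs (0.88, 0.68 to 1.08), and the translation repressor Eif4ebp1 30.1 and 42.2 CPM (0.49). Mtor itself was at 0.00 (-0.11 to 0.11), and Larp1 at 0.26. In aCap-like cells the medians of these 4 lists were 0.41, 0.37, 0.30 and -0.17, and in LEC-like cells the other TOP genes stood at -0.22, close to the ribosomal protein median there.

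The vessel classes were next set against gCap-like cells of the same library. In control, all 80 members were higher in vein-like cells, against 42.9% of all genes, with a median log2 ratio of 0.72. They were led by Rplp1 (1.05) and Rpl10 (1.01), and the paralogs Rps27l (0.21) and Rpl7l1 (0.07) were least above gCap-like cells. In aCap-like cells 0 of 80 were higher, against 47.7% of all genes, with a median of -0.82. Rps24 (-1.29), Rps6 (-1.28) and Rps19 (-1.24) were furthest below, while Rpl31 (-0.02), Rps27l (-0.07) and Rpl7l1 (-0.11) were close to gCap-like cells. The low level of aCap-like cells thus did not extend evenly over the list.

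LEC-like cells of control had 78 of 80 members above gCap-like cells, against 49.6% of all genes, with a median of 0.32. Rpl22l1 (1.06) and Rps28 (1.03) were highest there. In B16-F10 lungs 19 of 80 were above gCap-like cells, against 50.4%, and the median was -0.14. Artery-like cells went from 66 of 80 (against 44.4%) and a median of 0.10 to 31 of 80 (against 47.1%) and -0.03. Vein-like cells kept most of their excess, with 78 of 80 higher (against 40.4%) and a median of 0.55 in B16-F10 lungs, and aCap-like cells had 1 of 80 higher (against 49%) and a median of -0.52.

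Some endothelial clusters met no vessel class and consisted mostly of B16-F10 cells. They were compared with gCap-like cells of that library, a comparison chosen after their values had been seen. Ribosomal protein genes took no part in the clustering. The cluster led by Has2, Csf2, Inhbb and Myc held 337 B16-F10 and 11 control cells and had a share of 9.81% in B16-F10 lungs, against 6.92% in gCap-like cells. Here 76 of 80 members were higher, against 35.3% of all genes, with a median log2 ratio of 0.57. The members spread widely. Rps2 had 1854 CPM against 673 (1.46) and Rpl12 1243 against 466 CPM (1.41, 1.37 to 1.46), followed by Rpl7l1 at 1.25 and Rpl10a at 1.14. The 4 members below gCap-like cells were Rps21 (-0.34), Rps27 (-0.24), Rps4x (-0.15) and Rps29 (-0.12).

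A smaller cluster, led by AA467197, Maff and Gpatch4, held 59 B16-F10 cells and 1 control cell and had a share of 15.7%. Its B16-F10 cells held 0.16% Malat1 and 4.40% mitochondrial UMIs, against 3.50% and 2.50% in gCap-like cells of that library, and its median cell had 3998.5 UMIs. A larger mixed cluster, led by Cenpb and Trp53inp2 and left out of the vessel classes, was likewise low in Malat1, at 0.10% over 770 B16-F10 cells, and had a ribosomal protein share of 14.2%. The part of RNA quality in these shares was not tested. All 80 members of the cluster led by AA467197 were higher than in gCap-like cells, against 38.1% of all genes, with a median of 1.19. Rpl12 (2.13, 2.00 to 2.25) and Rps2 (2.11, 2.00 to 2.21) led again, and Rps21 (0.43) and Rps4x (0.51) were lowest. The other TOP genes had medians of 0.74 and 0.92 in these 2 clusters. Cells led by the cell cycle genes Cenpf and Ckap2 numbered 20 in B16-F10 and 4 in control lungs, with shares of 9.90% and 11.5%. The 20 B16-F10 cells had 79 of 80 members higher than in gCap-like cells, against 52.4% of all genes, with a median of 0.51.

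The melanoma-like class also held 2 control cells, although control mice received no B16-F10 cells, and what these 2 cells are was not tested. Their share was 19.3%, against 20.2% in T and NK-like cells of control. In the B16-F10 library the 78 melanoma-like cells had the highest share of any class, 28.8%, with quartiles of 21.5% and 33.7%. Malat1 took 0.034% and mitochondrial genes 7.11% of their UMIs, and the part of RNA quality in the share was not tested. Against gCap-like cells of the same library 79 of 80 members were higher, against 29.1% of all genes, with a median of 2.01. Rpl22l1 stood out at 1450 CPM against 154 (3.24, 3.15 to 3.33), while its paralog Rpl22 was at 1959 against 550 CPM (1.83). Rpl32 (3.19) and Rpl12 (3.16) were the next highest. Rpl7l1 was level with gCap-like cells, at 87.4 and 89.0 CPM (-0.03, -0.38 to 0.31).

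**Figure D5:**
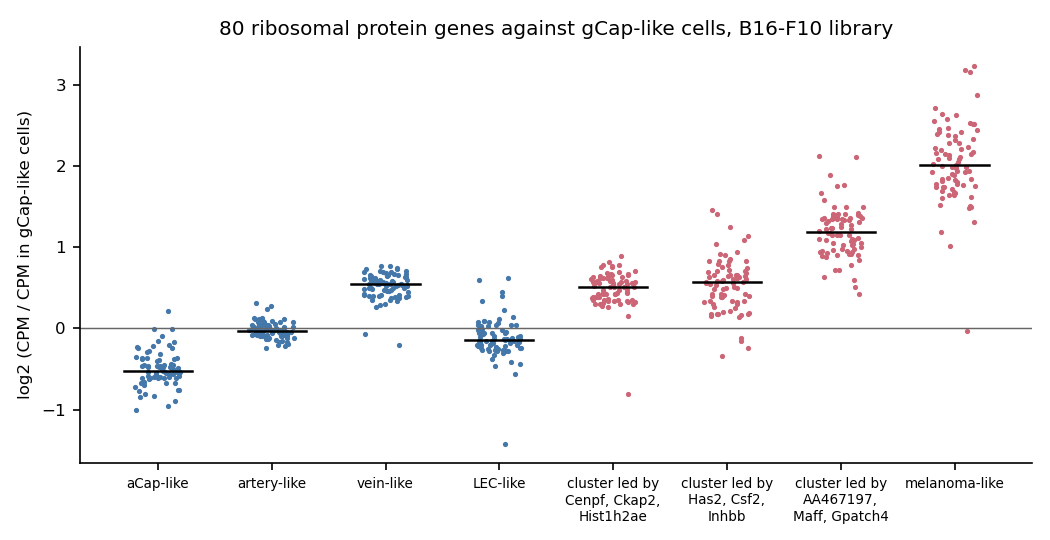
log2 ratio of CPM over gCap-like CPM within the B16-F10 library (y axis) for the 80 ribosomal protein genes, shown as points with the median as a black line, in 4 vessel classes (blue) and in 3 unnamed endothelial clusters and melanoma-like cells (red). The medians run from -0.52 in aCap-like cells to 1.19 in the cluster led by AA467197 and 2.01 in melanoma-like cells.

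Leukocytes left after the sort lay on both sides of the ECs. B-like cells had a share of 18.7% in 8 control and 21.5% in 38 B16-F10 cells, T and NK-like cells 20.2% in 8 and 22.5% in 29 cells, and macrophage/monocyte-like cells 16.7% in 5 and 14.8% in 36 cells. Neutrophil-like cells, at 2.73% in 3 and 2.68% in 19 cells, were below every vessel class. Near-identical copies limit some single genes: 11 of 80 members share read-length windows at their 3′ end with another listed gene, and besides Rpl35 and Rpl10 the shared part was 49.9% in Rps18, 48.6% in Rpl36a, 40.9% in Rps27 and 36.3% in Rpl9. Summing each of these 4 with its copy left ratios of 0.28, 0.24, 0.16 and 0.19, against 0.29, 0.25, 0.16 and 0.19 without it.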

How the data were processed

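Single-cell libraries of sorted lung cells were analysed, 1 for each of 2 groups. The authors deposited raw UMI counts per gene and barcode, listing all barcodes with no normalization; Cell Ranger 7.2.0 and mm10 are named in the submitters' processing notes. The labels name a 3′ v2 kit, but the 1597090 control and 1779952 B16-F10 barcodes listed are more than the barcode list of that kit holds. The kit is thus not settled, and whether intronic reads were counted is not given in the sources used here. The cell filter asked for 1000 to 5000 genes and less than 20% mitochondrial UMIs. Doublets were called with Scrublet in scanpy 1.11.5 at 0.8% per 1000 cells, which removed 564 and 554 cells. Cells were clustered with leidenalg 0.10.2 (30 components, 20 neighbours, resolution 0.8) on 3000 variable genes without the ribosomal protein genes and the rCap and interferon markers of the study, which gave 29 clusters. Clusters that met the endothelial rule and another class were called mixed, with 851 control and 1224 B16-F10 cells.

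A class needed at least 3 markers, 1.5-fold above other clusters and in 10% of cells, and 50% of its list. UMIs were summed per class and library, as CPM. Ratios are on the log2 scale without a pseudocount and carry exact conditional binomial intervals, differences of shares Newcombe intervals and shares of cells Clopper-Pearson intervals, with 3 counts as the limit for 0. A gene entered with 50 or more UMIs in the 2 sums together, and the second background held genes with at least 100 CPM in either library. Genes were named by the size of their ratio (8 highest and 8 lowest in gCap-like cells, 3 and 3 in other classes with at least 200 UMIs), by abundance and by role. Some genes that this rule selects are not reported here. Windows of 91 bases over the last 500 bases of transcripts were searched for copies. The members, lists and alternatives were chosen with earlier results of these data known. The interval script was tested on simulated data.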

Additional observations from a re-analysis of the deposited data

Results flagged for a closer look

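The LEC-like share of ribosomal protein UMIs was lower in the B16-F10 library, a difference of -1.14 percentage points, while the other 4 vessel classes were higher. This difference in direction was not tested, because each group has 1 library. It rests on 57 and 51 cells, and the median cell differed less, at 6.54% and 6.21%.

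Barcodes outside the limits of the cell filter also held more ribosomal protein UMIs in the B16-F10 library. The share was 11.4% against 7.79% in control in barcodes with 1 to 100 UMIs. Above 100 UMIs it was 8.60% against 5.34% up to 300 genes, 10.97% against 8.38% from there to 1000 genes, and beyond 5000 genes 7.53% against 6.45%. Over all barcodes of the libraries it was 7.97% against 6.16%.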

How the results depend on the processing

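No paired analysis was possible because there is only 1 library a group. The alternatives that weighted clusters equally, left out the cluster of lowest share in gCap-like and aCap-like cells, or left out cells under 2% ribosomal protein UMIs were chosen after seeing the data. The last acts on the compared share itself and supports no difference among the cells it keeps. Over 10 results, 150 alternative values were computed, of which 93 stayed within the counting interval or count limit, 56 left it without changing sign and 1 changed sign. The sign change was the vein-like difference, at -0.13 points with free RNA subtracted at 10%. The cause of these moves was not tested, except that summing all ECs adds other classes and leaving out cells removes the low shares.

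The gCap-like difference of 0.93 points was 0.97 with at least 500 genes, 0.94 with at least 1500, 0.97 with no upper limit of genes, 0.96 under 10% mitochondrial UMIs, 1.29 over all ECs, 1.02 at 2000 UMIs per cell, 0.99 without mitochondrial genes and Malat1, 0.64 with free RNA subtracted, 1.34 with clusters weighted equally, 0.73 without the lowest cluster and 0.66 without cells under 2%. The aCap-like difference of 1.37 was 1.34 with at least 1500 genes, 1.34 with no upper limit, 1.35 under 10% mitochondrial UMIs, 1.35 with doublets kept, 1.70 thinned, 1.47 without mitochondrial genes and Malat1, 1.12 with free RNA subtracted, 0.96 weighted, 0.61 without the lowest cluster and 0.68 without cells under 2%. The artery-like difference of 0.41 was 0.32 and 0.34 with at least 500 and 1500 genes, 0.55 with no upper limit, 0.47 with doublets kept, 0.51 with the lists kept in clustering, 0.068 with free RNA subtracted and 0.17 without cells under 2%. The vein-like difference of 0.19 was 0.094 and 0.35 with at least 500 and 1500 genes, 0.000604 with no upper limit, 0.27 under 10% mitochondrial UMIs, 0.39 with doublets kept and 0.26 with the lists kept. The LEC-like difference of -1.14 was -0.91 and -1.003 with at least 500 and 1500 genes, -0.85 with no upper limit, -0.58 with doublets kept, -1.26 thinned, -1.63 with free RNA subtracted and -0.95 without cells under 2%.

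The median ratio of members in gCap-like cells was 0.30 over all ECs, 0.24 thinned, 0.16 with free RNA subtracted, 0.25 divided by the median ratio of all genes, 0.16 without the lowest cluster and 0.15 without cells under 2%. The count at 0.25 or more was 56 over all ECs, against 22.2% of all genes. It was 12 with free RNA subtracted, 15 without the lowest cluster and 12 without cells under 2%. The count at -0.25 or less was 0 in every alternative. The share of all genes past these limits is not given for the other settings, so whether the members exceed other genes there cannot be read from these counts. The other TOP genes were at 0.31 over all ECs, 0.23 thinned, 0.24 divided by the median ratio, 0.15 without the lowest cluster and 0.14 without cells under 2%. The median of the mitochondrial ribosomal protein genes stayed within its interval. Depth limited LEC-like cells, which held 468219 UMIs in control.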
